A study of Mus musculus with 8 samples.

Results

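Megakaryocytes, the large marrow cells that shed platelets, carry a set of integrins for fibrinogen and for matrix proteins, and the transcripts of 8 subunit genes of this set are described here across 2 culture conditions. The members were chosen by name, as the genes of the count table whose mouse Ensembl identifiers carry the symbols Itga2b, Itgb3, Itga2, Itga5, Itga6, Itgav, Itgb1 and Itgb5. They are 8 of the 27679 genes listed, and all 8 were among the 13845 genes with enough counts to be tested. No measured value entered this rule, but the members were chosen with earlier results of these data known.

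RNA-seq libraries came from bone marrow cells of wild-type C57BL/6 mice that had been freed of lineage-positive cells by magnetic depletion. The cells spent 3 days in liquid medium or in a soft hydrogel of 2% methylcellulose, whose Young modulus (stiffness) is given as 30 to 60 Pa, after which a BSA density gradient was used to enrich the large, mature megakaryocytes. There were 4 libraries per condition, which the submitters call independent biological replicates, and liquid culture served as the control. Genotype, strain, culture time and gradient were the same in both groups, the sources used here do not give the age of the mice, and the series title places the work in a study of mechanical confinement and platelet release.

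The libraries held 27012172 to 37059314 counts in hydrogel and 28825468 to 49281611 in liquid. All 28 listed megakaryocyte and platelet markers were detected well enough to be tested, with summed levels of 31690 to 46016 CPM (counts scaled to a common library size by TMM) in hydrogel and 34514 to 60271 CPM in liquid. Monocyte and macrophage markers were present as well: 21 of 24 were tested, their sum was 4377 to 9470 CPM in hydrogel against 1176 to 2548 CPM in liquid, and no listed marker was at 0 in all libraries. Among the tested markers, 17 of 21 macrophage genes were higher in hydrogel and 0 lower, while 17 of 28 megakaryocyte genes were lower and 0 higher (7 to 10 lower without hydrogel 2, 3 or 4 or liquid 1, 3 or 4, 24 without liquid 2 and 26 without hydrogel 1 and liquid 2). Hydrogel 1 stood apart from its own group: its macrophage score (mean centred log2 CPM of the 21 markers) was the lowest, at 0.39, with the remaining 3 between 1.34 and 1.40. Liquid 2 had the highest score of its group, −0.23, with the remaining 3 between −1.65 and −1.11. Dixon's test, described below, picked out hydrogel 1 for this score but not liquid 2. Results that rest on these libraries are given with and without them.

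Integrins are heterodimers of an α and a β chain that bind ligands outside the cell and couple to the actin cytoskeleton through talin and kindlin. On megakaryocytes and platelets αIIb (CD41, encoded by Itga2b) pairs with β3 (CD61, Itgb3) to form the receptor for fibrinogen, whose loss in humans causes the bleeding disorder Glanzmann thrombasthenia. The β1 chain (Itgb1) pairs with α2 to bind collagen, with α5 to bind fibronectin and with α6 to bind laminin, and αv (Itgav) pairs with β3 or β5 to bind vitronectin. Inside-out signals switch these receptors to a state of high affinity, and bound receptors signal back through Src and Syk family kinases.

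RefSeq promoter sequences (build GRCm38.p6) matched 6 of the 8 members by symbol; the others are Itgb3 and Itga6. In the 250 bases before the annotated start, both strands were searched for letters recognised by 3 factor families that act in megakaryocytes. The ETS letters AGGAAG or CGGAAG occurred in 3 of 6 promoters, against 39.2% of 32851 promoters of this length. The GATA letters AGATAA or AGATAG or TGATAA or TGATAG occurred in 0 of 6 (26.5% of all promoters), and the RUNX letters TGTGGT or TGCGGT in 0 of 6 (18.6%), and no matches overlapped. The promoters of the called members that matched, Itga2b and Itga5, are shown because their transcripts moved in opposite directions, with ETS matches in capitals. The Itga2b stretch is chr11:102469884-102470133 (minus strand), with matches that begin 125 and 43 bases before the start. The Itga5 stretch is chr15:103366792-103367041 (minus strand) and holds no match; the start that RefSeq gives for it was not found in the GENCODE transcripts. Matches in Itgav began 55 and 8 bases before the start, and those in Itgb1 63 and 56 bases before it. A match is only a run of letters and shows no binding.
Itga2b: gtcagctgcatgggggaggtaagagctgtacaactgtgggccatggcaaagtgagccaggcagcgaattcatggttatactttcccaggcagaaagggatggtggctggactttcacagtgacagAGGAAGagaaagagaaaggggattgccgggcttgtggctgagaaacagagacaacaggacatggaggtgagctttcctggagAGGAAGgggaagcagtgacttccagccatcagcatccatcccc
Itga5: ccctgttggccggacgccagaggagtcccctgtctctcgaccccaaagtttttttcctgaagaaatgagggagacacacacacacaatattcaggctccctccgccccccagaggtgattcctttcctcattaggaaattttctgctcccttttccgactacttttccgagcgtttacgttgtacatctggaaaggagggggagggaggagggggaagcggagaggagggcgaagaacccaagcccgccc

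In hydrogel the transcripts of both chains of the fibrinogen receptor were lower and that of the fibronectin receptor chain α5 was higher, while the other 5 subunit genes did not pass the test. Of the 8 members, 2 were called lower and 1 higher by edgeR's quasi-likelihood test (adjusted p under 0.05 over all tested genes), with a median log2 change, hydrogel minus liquid, of −0.31. Over all 13845 tested genes 29.3% were called, 14.1% lower and 15.1% higher, and the median log2 change was −0.01. The hydrogel and liquid libraries did not overlap for 2 of the 8 members, 1 below and 1 above, against 28.4% of all tested genes (13.8% below and 14.6% above). The members' share of called genes, 3 of 8, was thus near that of all genes. In bulk RNA, fewer cells of a type and less RNA per cell cannot be told apart.

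**Figure D1:**
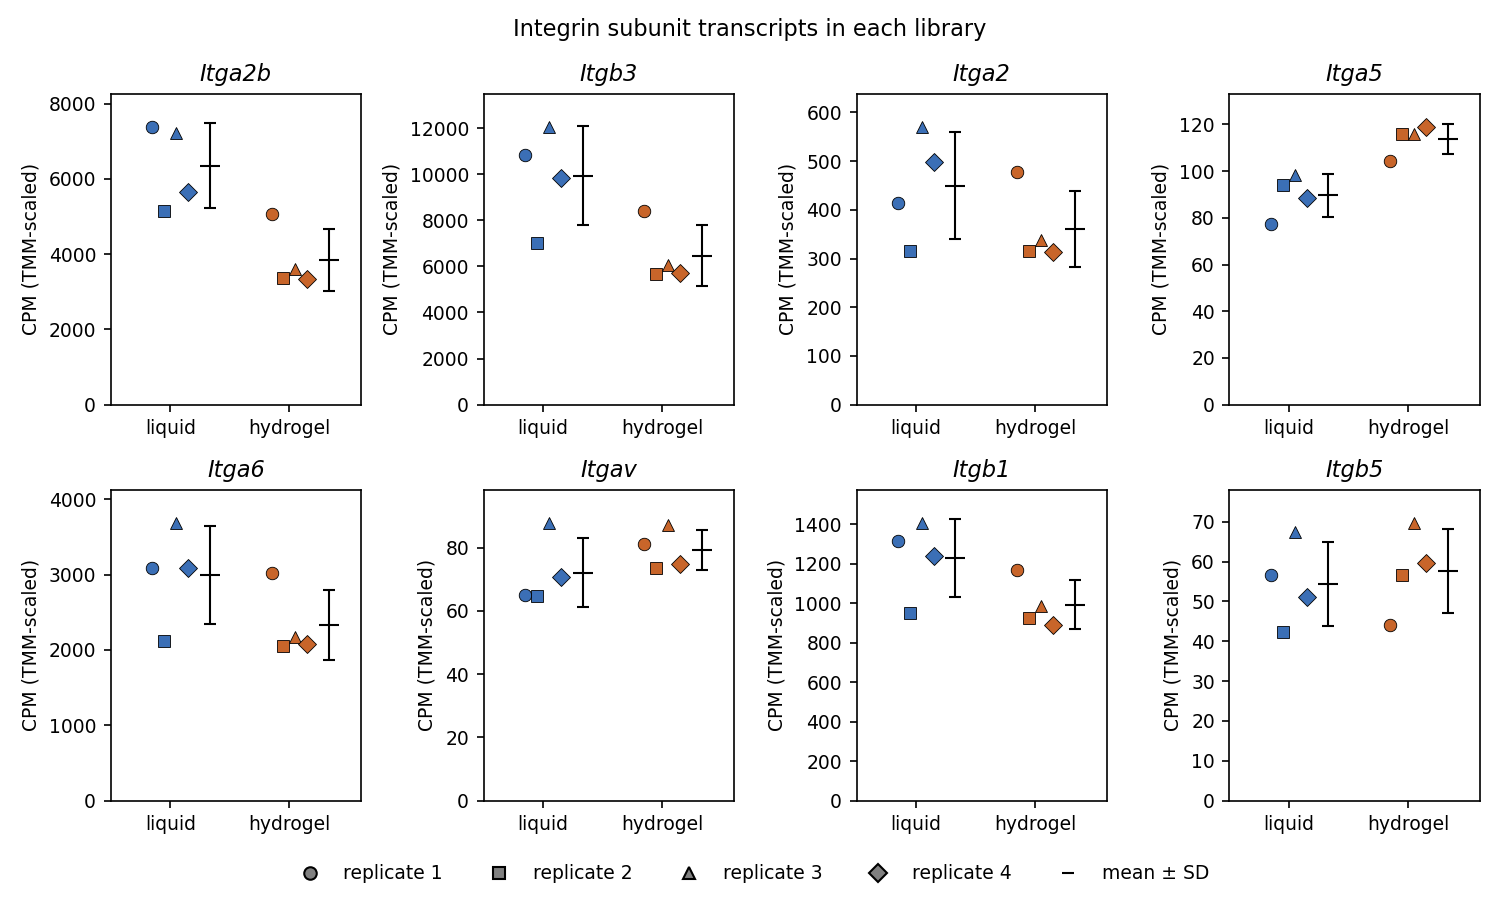
TMM-scaled CPM of each integrin subunit gene in the 4 liquid (blue) and 4 hydrogel (orange) libraries; marker shapes give the replicate number, and bars the mean ± SD. The circle of hydrogel 1 lies above the other hydrogel libraries for Itga2b, Itgb3, Itga2 and Itga6, and the groups are apart for Itga2b and Itga5 only.

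Itga2b (ENSMUSG00000034664), which encodes the αIIb chain that marks the megakaryocyte lineage, was the subunit with the largest fall. Its level was 7384, 5138, 7226 and 5662 CPM in liquid libraries 1 to 4, and 5077, 3358, 3599 and 3346 CPM in hydrogel libraries 1 to 4. Every hydrogel library lay below every liquid library, although hydrogel 1 came within a short distance of liquid 2. The mean was 3845 ± 830 CPM in hydrogel and 6352 ± 1122 CPM in liquid (SD, n = 4 each), 1.65-fold lower in hydrogel, a log2 change of −0.72 ± 0.19 (SE, edgeR adjusted p = 0.0165). The call was lost without hydrogel 2 (edgeR adjusted p = 0.0609), hydrogel 3 (0.0561), hydrogel 4 (0.0567) or liquid 1 (0.0509), with the log2 change between −0.89 and −0.65 whichever library was left out.

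Itgb3 (ENSMUSG00000020689) encodes β3, the partner of αIIb and one of the partners of αv. It stood at 10833, 7031, 12052 and 9823 CPM in liquid libraries 1 to 4, and at 8422, 5689, 6048 and 5712 CPM in hydrogel libraries 1 to 4. The groups overlapped, since hydrogel 1 exceeded liquid 2, and the other 3 hydrogel libraries lay below all liquid libraries. The mean of 6468 ± 1313 CPM in hydrogel was 1.54-fold lower than the 9935 ± 2139 CPM in liquid (SD, n = 4 each), a log2 change of −0.62 ± 0.21 (SE, edgeR adjusted p = 0.0477). With this p close to the threshold, the call was kept in only 2 of 8 fits that left out 1 library, those without hydrogel 1 (edgeR adjusted p = 0.0162) or liquid 2 (0.00618). It was lost without hydrogel 2 (0.138), hydrogel 3 (0.124), hydrogel 4 (0.13), liquid 1 (0.112), liquid 3 (0.104) or liquid 4 (0.0968).

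Both chains were among the most abundant transcripts of the cells. By mean CPM Itgb3 held rank 3 and Itga2b rank 10 of the tested genes in liquid, and ranks 7 and 16 in hydrogel. CPM favours long transcripts. Per kilobase of merged exons, Itgb3 and Itga2b held ranks 11 and 16 in liquid and 18 and 24 in hydrogel. Together these genes took 1.28% to 1.78% of all counts of a liquid library and 0.942% to 1.33% of a hydrogel library.

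Itga2 (ENSMUSG00000015533), the α2 chain of the collagen receptor, did not pass the test. It was at 414, 315, 570 and 498 CPM in liquid libraries 1 to 4, and at 478, 315, 338 and 314 CPM in hydrogel libraries 1 to 4. Hydrogel 1 was as high as the liquid libraries, and liquid 2 as low as the hydrogel libraries, so the groups overlapped broadly. Means were 361 ± 78.2 CPM in hydrogel and 449 ± 110 CPM in liquid (SD, n = 4 each), and the log2 change was −0.31 ± 0.19 (SE, edgeR adjusted p = 0.248).

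Itga5 (ENSMUSG00000000555), the α5 chain of the main fibronectin receptor, was the only member called higher. Levels were 77.4, 94.3, 98.3 and 88.6 CPM in liquid libraries 1 to 4, and 104, 116, 116 and 119 CPM in hydrogel libraries 1 to 4. All hydrogel libraries lay above all liquid libraries, and hydrogel 1 was again the one nearest to the other group. The mean rose 1.27-fold, from 89.6 ± 9.09 to 114 ± 6.46 CPM (SD, n = 4 each), a log2 change of 0.34 ± 0.08 (SE, edgeR adjusted p = 0.0119). This call held in 8 of 8 fits without 1 library, with log2 changes from 0.28 to 0.39 and adjusted p up to 0.0381.

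Itga6 (ENSMUSG00000027111) encodes the α6 chain of the laminin receptor and was the most abundant of the chains that pair with β1. Its values were 3082, 2118, 3687 and 3089 CPM in liquid libraries 1 to 4, and 3024, 2049, 2177 and 2083 CPM in hydrogel libraries 1 to 4. Here too hydrogel 1 resembled liquid libraries and liquid 2 resembled hydrogel libraries. The means were 2333 ± 464 and 2994 ± 649 CPM in hydrogel and liquid (SD, n = 4 each), with a log2 change of −0.36 ± 0.19 that did not pass (SE, edgeR adjusted p = 0.181).

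Itgb1 (ENSMUSG00000025809), the β1 chain shared by the α2, α5 and α6 receptors, was at 1318, 949, 1408 and 1238 CPM in liquid libraries 1 to 4, and at 1169, 925, 986 and 892 CPM in hydrogel libraries 1 to 4. Liquid 2 fell among the hydrogel libraries and hydrogel 1 lay between both groups. Means of 993 ± 123 CPM in hydrogel and 1228 ± 199 CPM in liquid (SD, n = 4 each) gave a log2 change of −0.31 ± 0.14, which did not pass (SE, edgeR adjusted p = 0.122).

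Itgav and Itgb5, the αv and β5 chains, had the lowest CPM of the members and neither passed the test. Itgav (ENSMUSG00000027087) was at 65.1, 64.6, 87.8 and 70.7 CPM in liquid libraries 1 to 4, and at 81.1, 73.4, 87.1 and 74.9 CPM in hydrogel libraries 1 to 4. Its groups overlapped through liquid 3, the highest library of all, and the log2 change was 0.13 ± 0.10 (SE, edgeR adjusted p = 0.370; means 79.1 ± 6.27 and 72.1 ± 10.9 CPM, SD, n = 4 each). Itgb5 (ENSMUSG00000022817), the β5 chain, was at 56.7, 42.4, 67.5 and 51.0 CPM in liquid libraries 1 to 4, and at 44.1, 56.7, 69.7 and 59.6 CPM in hydrogel libraries 1 to 4. The Itgb5 groups overlapped over most of their range, and hydrogel 1 was the lowest hydrogel library for this gene. Its log2 change was 0.08 ± 0.16 (SE, edgeR adjusted p = 0.747; means 57.6 ± 10.6 CPM in hydrogel and 54.4 ± 10.5 CPM in liquid, SD, n = 4 each). Itgav shares exon sequence with an antisense gene (Gm13684), and without the strand setting of the counting their reads cannot be told apart.

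To compare levels between genes, CPM were divided by the merged exon length of each gene in kilobases. In liquid the length-scaled level was 1684 ± 363 CPM per kb for Itgb3 and 1165 ± 206 for Itga2b, and in hydrogel 1096 ± 223 and 705 ± 152. Itgb3 exceeded Itga2b in each of the 8 libraries on this scale, while the ranges of the liquid libraries overlapped (1192 to 2042 against 942 to 1354 CPM per kb). Both lay well above every other member.

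Itga6 and Itgb1 followed at similar length-scaled levels, with 332 ± 71.9 and 301 ± 48.7 CPM per kb in liquid and 259 ± 51.4 and 243 ± 30.3 in hydrogel. These differences were smaller than the spread between libraries. Within the same library, Itga6 lay above Itgb1 except in hydrogel 3 (241.2 against 241.5 CPM per kb). Itga2 came next at 63.0 ± 15.4 CPM per kb in liquid and 50.7 ± 10.97 in hydrogel, apart from its neighbours on both sides. Thus α6 had the highest transcript level among the chains that bind β1. Itga5 (18.2 ± 1.84 CPM per kb in liquid, 23.1 ± 1.31 in hydrogel) and Itgb5 (15.3 ± 2.96 and 16.2 ± 2.97) were close, with overlapping ranges in liquid (15.7 to 19.9 against 11.9 to 19.0) and separate ones in hydrogel (21.1 to 24.1 against 12.4 to 19.6). Itgav was lowest at 6.71 ± 1.01 CPM per kb in liquid and 7.37 ± 0.58 in hydrogel (SD, n = 4 for all of these). Itga2b and Itgb3 together made up 78.2% to 80.8% of the members' summed length-scaled level in liquid and 74.3% to 76.4% in hydrogel.

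**Figure D2:**
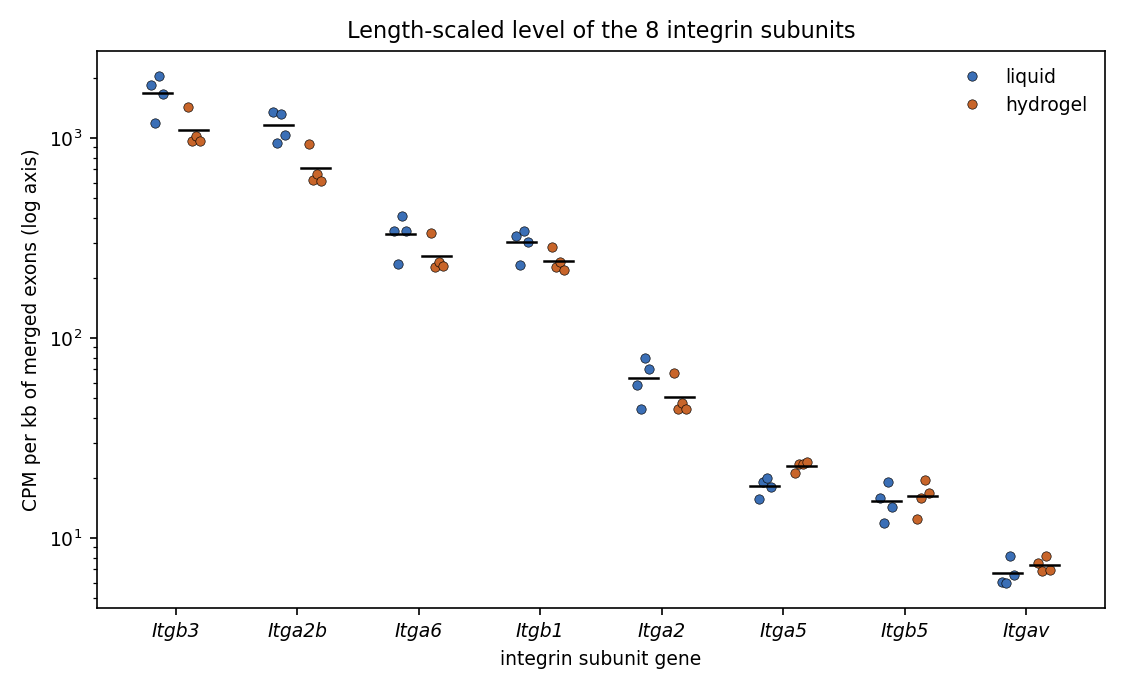
CPM per kilobase of merged exons (log axis) for the 8 subunit genes, with 1 point per library, liquid in blue and hydrogel in orange, and a bar at each mean. The genes span from 6.71 CPM per kb for Itgav to 1684 for Itgb3 in liquid, and the order of the means was the same in both cultures.

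The call for each subunit was also read without hydrogel 1 and liquid 2, which left 3 libraries per group. The fibrinogen receptor chains were then lower by larger amounts, with log2 changes of −0.96 ± 0.11 for Itga2b (SE, edgeR adjusted p = 1.33e-05) and −0.89 ± 0.10 for Itgb3 (1.01e-05). The collagen and laminin receptor chains passed the test as lower too, at −0.60 ± 0.10 for Itga2 (edgeR adjusted p = 0.000387), −0.63 ± 0.09 for Itga6 (0.000103) and −0.48 ± 0.08 for Itgb1 (0.000309), and Itga5 was higher at 0.42 ± 0.08 (0.0015). Itgav and Itgb5 did not pass (edgeR adjusted p = 0.547 and 0.491). In this fit 5 of 8 members were lower and 1 higher, and of all genes 19% were lower and 21.6% higher. Leaving out liquid 2 alone gave the same call for these 6 members. The edgeR adjusted p was then 0.0499 for Itga2, 0.0288 for Itga6 and 0.0143 for Itgb1. Without hydrogel 1 alone these 3 genes were not called (edgeR adjusted p = 0.0641, 0.0551 and 0.0576). Their log2 changes were similar in both fits: −0.48, −0.51 and −0.39 without hydrogel 1, and −0.45, −0.50 and −0.41 without liquid 2. The pair of libraries was chosen with its scores known. For Itga2b, Itgb3, Itga2, Itga6 and Itgb1, hydrogel 1 was the highest hydrogel library and liquid 2 the lowest liquid library. Leaving both out therefore had to widen the gap for these genes, and the smaller p-values are no further support.

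Because megakaryocyte markers were lower in hydrogel and macrophage markers higher, the members were also measured relative to the megakaryocyte markers. Scaled to the geometric mean of the 28 markers, Itgb3 was at 13.5, 12.1, 12.8 and 11.96 counts per marker count in liquid libraries 1 to 4 and at 12.8, 12.2, 11.8 and 11.7 in hydrogel libraries 1 to 4. For Itga2b these ratios were 9.18, 8.87, 7.69 and 6.89 in liquid and 7.70, 7.18, 7.04 and 6.87 in hydrogel. On this scale the groups overlapped for both genes and neither was called: the log2 change was −0.18 ± 0.09 for Itga2b (SE, edgeR adjusted p = 0.115) and −0.06 ± 0.06 for Itgb3 (0.456).

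This scaling moved the median of all genes from −0.01 to 0.53, with 43.7% of genes called higher and 1.81% lower. Of the members 5 were called higher and 0 lower: Itga5 at 0.90 ± 0.20 (SE, edgeR adjusted p = 0.00753), Itgav at 0.70 ± 0.17 (0.00895), Itgb5 at 0.69 ± 0.21 (0.0246), Itgb1 at 0.26 ± 0.09 (0.0314) and Itga6 at 0.21 ± 0.07 (0.0329). Itga2 was at 0.25 (edgeR adjusted p = 0.0678). The signs of Itgb1, Itga6 and Itga2 therefore differ between this scaling and TMM. Relative to the median of all genes, Itga5, Itgav and Itgb5 stood above it and the other 5 members below it under both scalings. Rescaling moved the members and the median by similar amounts, so this order had to stay much the same and is no further support.

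With the macrophage score as a covariate, 0 of 8 members were called, against 3.78% of all genes (524 genes). The log2 change was 0.28 ± 0.20 for Itga2b (SE, edgeR adjusted p = 0.499), 0.56 ± 0.20 for Itgb3 (0.152) and 0.07 ± 0.18 for Itga5 (0.891). Culture accounted for 83.8% of the variance of this score, so this fit had little of the culture difference left to test. Macrophages also express α5, αv, β1 and β5, and the part of their RNA in these changes was not tested.

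**Figure D3:**
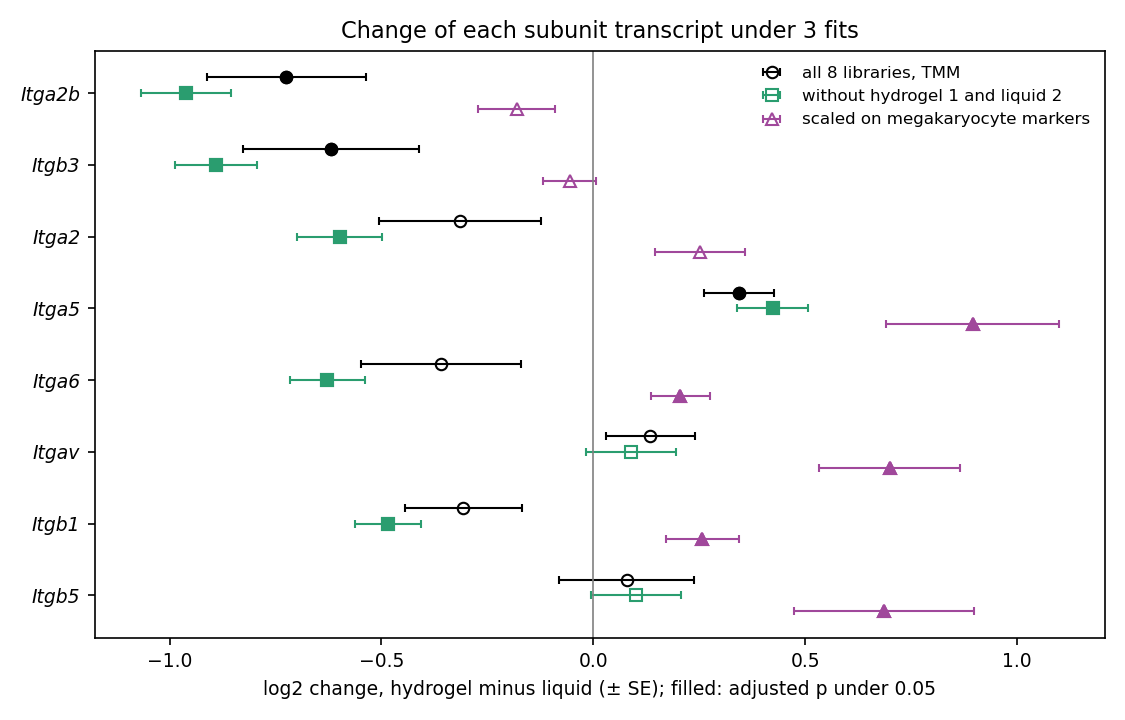
Log2 change, hydrogel minus liquid (± SE), of each subunit gene with all 8 libraries and TMM scaling (circles), without hydrogel 1 and liquid 2 (squares) and scaled on the megakaryocyte markers (triangles); filled symbols passed an adjusted p of 0.05. Itga5 is to the right of 0 and Itga2b to the left in all 3, and Itga2, Itga6 and Itgb1 change sides between TMM and marker scaling.

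Ratios of 2 members within a library need no scaling between libraries, and 7 of them were tested by a two-sided exact permutation test of log2 ratios, for which 0.0286 is the smallest p that 4 against 4 libraries allow. The ratio of Itga2b to Itgb3, the chains of the fibrinogen receptor, was 0.682, 0.731, 0.600 and 0.576 in liquid libraries 1 to 4 and 0.603, 0.590, 0.595 and 0.586 in hydrogel libraries 1 to 4. Hydrogel libraries were within a narrow range that the liquid libraries spanned. The log2 difference was −0.12 ± 0.08 (SE, exact permutation p = 0.343, adjusted over the 7 ratios 0.6).

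The ratio of β3 to β1 transcripts, Itgb3 to Itgb1, was 8.22, 7.41, 8.56 and 7.94 in liquid libraries 1 to 4 and 7.20, 6.15, 6.14 and 6.40 in hydrogel libraries 1 to 4. All hydrogel ratios lay below all liquid ratios. The difference was 1.24-fold (log2 −0.31 ± 0.07, SE; exact permutation p = 0.0286, adjusted 0.1). The ratio of Itgav to Itgb3, the chains of a vitronectin receptor, was 0.00601, 0.00919, 0.00729 and 0.00720 in liquid and 0.00963, 0.0129, 0.0144 and 0.0131 in hydrogel. It too did not overlap, and was 1.69-fold higher in hydrogel (log2 0.75 ± 0.18, SE; exact permutation p = 0.0286, adjusted 0.1). Neither passed the adjustment over 7 ratios, although each p was the smallest possible.

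Itga5 to Itgb1, the chains of the fibronectin receptor, gave 0.0587, 0.0993, 0.0698 and 0.0716 in liquid libraries 1 to 4 and 0.0892, 0.125, 0.118 and 0.133 in hydrogel libraries 1 to 4. Hydrogel 1 fell below liquid 2 and the others were apart (log2 0.65 ± 0.20, SE; exact permutation p = 0.0571, adjusted 0.133). For the remaining ratios the log2 differences were −0.05 ± 0.07 for Itga6 to Itgb1, 0.00 ± 0.11 for Itga2 to Itgb1 and 0.06 ± 0.16 for Itgav to Itgb5 (SE; exact permutation p = 0.429, 1 and 0.771). Each of these differences was smaller than its SE, which does not show that the ratios were equal.

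**Figure D4:**
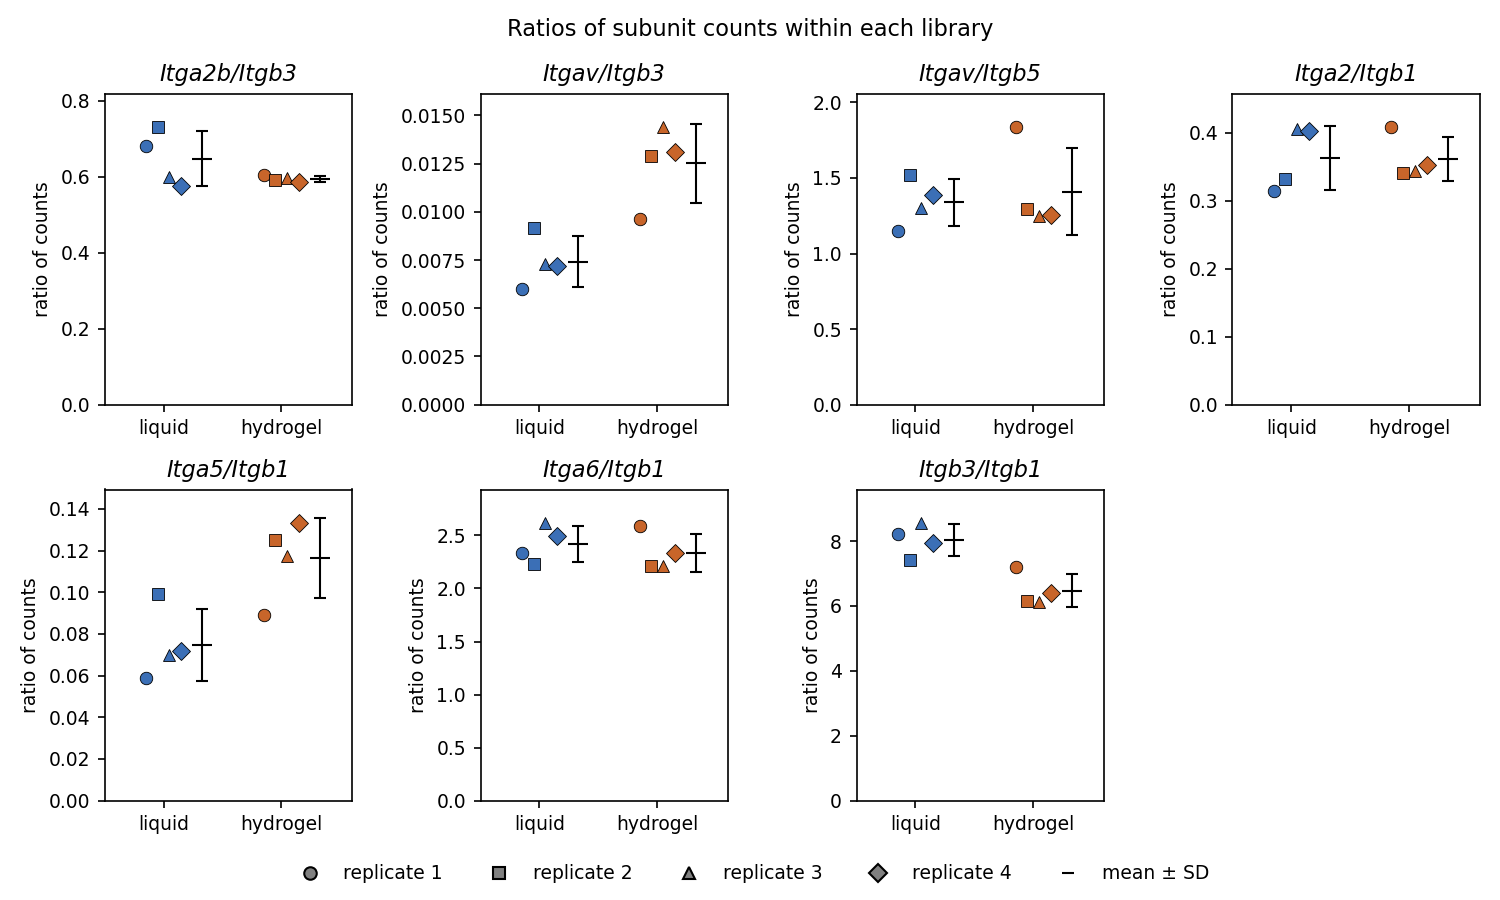
Ratio of counts of 2 subunit genes in the same library, for 7 pairs, liquid in blue and hydrogel in orange, with replicate numbers by shape and mean ± SD beside the points. The groups are apart for Itgav to Itgb3 and Itgb3 to Itgb1 and overlap for the other 5 pairs.

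Over the 8 libraries the abundant members varied together. Pearson correlations of log2 CPM were 0.98 between Itgb3 and Itgb1 and between Itga6 and Itgb1, 0.97 between Itga2b and Itgb3, and 0.96 between Itga6 and Itgb3. Itga5 ran the other way (−0.88 with Itga2b), and Itgav with Itgb5 gave 0.59. These values describe 8 libraries that share the culture difference and the offset of hydrogel 1 and liquid 2. On deviations from each culture's mean, Itgb3 still gave 0.99 with both Itga6 and Itgb1, and Itga2b with Itga5 −0.56.

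**Figure D5:**
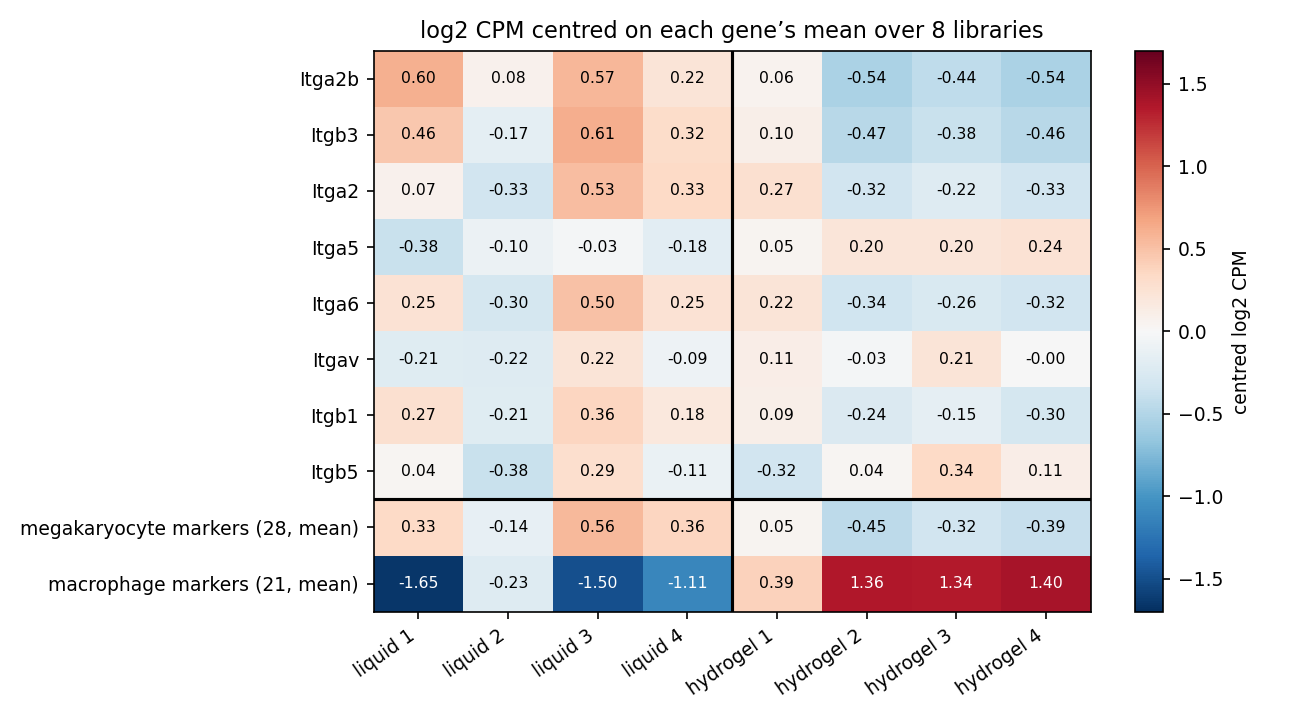
log2 CPM of each subunit gene (rows) in each library (columns), centred on the gene's mean over 8 libraries, above the mean centred level of the 28 megakaryocyte and the 21 macrophage markers; red is above and blue below the mean. Hydrogel 1 and liquid 2 lie between the other libraries of both cultures in the marker rows, at 0.39 and −0.23 for macrophage markers.

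The tested genes whose pattern over the 8 libraries was most like each member were read from 8338 genes with a mean of at least 10 CPM, by Pearson correlation of log2 CPM. For Itga2b they were the GTPase gene Gimap6 (0.994), the survival gene Bcl2l1 (0.992) and Ctla2a (0.992). For Itgb3 they were P2rx1, which encodes a platelet ATP receptor (0.999), Gp5, a chain of the von Willebrand factor receptor complex (0.997), and the junctional adhesion gene F11r (0.997). Thus P2rx1 and Gp5, both on the megakaryocyte list, had nearly the profile of Itgb3. For Itga6 they were Prkar2b (0.996), Pls1 (0.996) and the thrombin receptor gene F2rl3 (0.993), for Itgb1 Itpr2, Arhgap18 and Nipal3 (0.995 to 0.993), and for Itga2 the sheddase gene Adam10 (0.992), the scramblase gene Ano6 (0.990) and Rab22a (0.989). The genes most like Itga5 were higher in hydrogel as Itga5 was: the copper transporter gene Atp7a (0.986), Dmxl2 (0.985) and Camta2 (0.984). The least abundant members had looser matches, led by Ezh1 for Itgav (0.971) and Ahcyl2 for Itgb5 (0.921). All these profiles share the culture difference and the libraries that stood apart.

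The genes that act with these integrins were read from lists. Over all tested genes 15.1% were called higher and 14.1% lower. Of 15 tested genes for ligands of the members, 3 were higher and 0 lower (median log2 change −0.00). They were Fn1, the fibronectin bound by α5β1 (44.5 ± 14.0 against 8.50 ± 2.86 CPM, 5.25-fold), Spp1, the osteopontin bound by αv integrins (180 ± 71.8 against 29.1 ± 9.22 CPM, 6.20-fold), and Mfge8, which also binds αv integrins (161 ± 67.4 against 29.0 ± 6.16 CPM, 5.54-fold; SD, n = 4 each; the edgeR test gave adjusted p from 0.000522 to 0.000591). Without hydrogel 1 and liquid 2, 4 were higher and 3 lower; with the macrophage score as a covariate 4 were higher and 0 lower, and scaled on megakaryocyte markers 7 and 0. Genes of the fibrinogen chains and of vitronectin were not tested. All 3 ligands are also products of macrophages, whose markers moved the same way, and the part of macrophage RNA in these changes was not tested.

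Among 14 tested genes of other integrin subunits, 7 were higher and 1 lower (median 0.73), and 8 and 1 without hydrogel 1 and liquid 2. The shares of all genes were 15.1% and 14.1%, and 21.6% and 19% without these libraries. The leukocyte chain Itgb2 was at 477 ± 41.8 CPM in hydrogel and 281 ± 29.7 in liquid, its partner Itgal at 75.5 ± 4.65 and 46.9 ± 8.10, the α4 chain gene Itga4 at 97.3 ± 19.0 and 50.0 ± 11.6, and the α1 chain gene Itga1 at 17.8 ± 5.81 and 6.38 ± 2.40 (SD, n = 4 each, edgeR adjusted p from 0.000639 to 0.00564). With the macrophage score as a covariate 1 was higher and 0 lower, against 3.78% of all genes called. As for the members, this fit had little of the culture difference left to test.

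Of 18 tested genes that act on integrins from inside the cell, 6 were higher and 2 lower (median 0.06), against 15.1% and 14.1% of all genes. Without hydrogel 1 and liquid 2 the counts were 6 and 7 (all genes 21.6% and 19%). Scaled on megakaryocyte markers they were 12 and 0 (43.7% and 1.81%), and with the macrophage covariate 1 and 0 (3.78% called in either direction). With any 1 library left out, 3 to 5 were higher and 0 to 5 lower (3 higher without liquid 4). The lower count was 0 without hydrogel 2 or 4, 1 without hydrogel 3, 4 without hydrogel 1 and 5 without liquid 2. The 4 with the smallest adjusted p were all higher: Apbb1ip, the RIAM adaptor that brings Rap1 to talin (2.11-fold), Rap1gap2, which turns Rap1 off (3.90-fold, from 1.90 to 7.35 CPM), Sipa1l1, which also turns Rap GTPases off (1.32-fold), and the adaptor Dok2 (1.47-fold; edgeR adjusted p from 0.00195 to 0.0156). These named genes thus include activators and inhibitors of integrin activation.

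Of 29 tested adaptors and kinases that signal from bound integrins, 9 were lower and 2 higher (median −0.27), against 14.1% and 15.1% of all genes. The lower count was 5 without hydrogel 2, 3 or 4 or liquid 3 or 4, 16 without liquid 2, and 17 when hydrogel 1 was left out as well. Src, the kinase bound to the β3 tail, was at 337 ± 27.99 CPM in hydrogel and 537 ± 82.0 in liquid (1.59-fold lower), the related kinase Fyn at 112 ± 19.2 and 184 ± 27.9 (1.64-fold lower) and the adaptor Tgfb1i1 (Hic-5) at 176 ± 13.2 and 289 ± 58.5 (1.64-fold lower; SD, n = 4 each, edgeR adjusted p from 0.00219 to 0.0038). Tns3, a tensin that links integrin tails to actin, was 4.04-fold higher (edgeR adjusted p = 0.00444). Scaled on megakaryocyte markers, 0 of the 29 were lower and 15 higher, against 1.81% and 43.7% of all genes. With the macrophage score as a covariate 0 were lower and 1 higher, against 3.78% of all genes called in either direction.

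Traffic and membrane partners completed the lists. Of 20 tested genes for integrin traffic and proteolysis, 3 were higher and 3 lower (median 0.04), near the 15.1% and 14.1% of all genes. Without hydrogel 1 and liquid 2 the counts were 5 and 7 (all genes 21.6% and 19%). Scaled on megakaryocyte markers they were 14 and 0 (43.7% and 1.81%), and with the macrophage covariate 1 and 1 (3.78% called in either direction). The called genes included the recycling GTPases Rab4a (2.06-fold lower, from 8.39 to 4.06 CPM) and Rab11a (1.44-fold lower, from 346 to 241 CPM). Also called were the retromer genes Snx27 (1.43-fold higher) and Vps26a (1.27-fold higher). Of 16 tetraspanin and lateral partner genes, 6 were lower and 3 higher (median −0.39; 10 and 3 without liquid 2, and without both libraries). The balance turned to 1 lower and 5 higher when scaled on megakaryocyte markers, and likewise with the macrophage score as a covariate. Cd47, the integrin-associated protein that pairs with β3 integrins, fell 1.64-fold, from 674 ± 79.0 to 412 ± 34.6 CPM (edgeR adjusted p = 0.00108), while Slc3a2, which encodes the CD98 chain that binds β1 and β3 tails, rose 1.56-fold, from 155 ± 13.1 to 242 ± 12.6 CPM (0.000501; SD, n = 4 each). The tetraspanins moved in both directions: Cd63 and Cd82 were 1.68-fold and 3.14-fold higher (edgeR adjusted p = 0.000529 and 0.00413). Cd9, the most abundant tetraspanin of the list, was 1.66-fold lower (1005 ± 160.3 against 1672 ± 313 CPM, SD, n = 4 each, edgeR adjusted p = 0.00805). Tspan33 was 3.79-fold lower (edgeR adjusted p = 0.0045) but low throughout, at 0.77 CPM on average in hydrogel and 2.92 CPM in liquid. Both were named after their values were seen.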

How the data were processed

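Gene counts of 8 libraries (4 hydrogel, 4 liquid; groups and numbers from the labels) were used as deposited: whole-number counts per gene that the authors did not normalize. Per the labels' protocols the libraries were polyA-selected and stranded. Per the submitters' processing notes, the tools were bcl2fastq, STAR (2.7.10b) with build GRCm39, and HTSeq (0.13.5). Annotation release, strand setting and counting mode were not given in the sources used here. That the replicates came from separate animals is not stated beyond "independent", so p-values measure the spread between these libraries.

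Of 27679 identifiers, 26534 had a symbol in GENCODE M21 and 1145 (at most 0.135% of a library's counts) had none; 11 symbols with more than 1 identifier went unnamed, 2 stray text lines were left out, and 0 sample columns were unused. Exon lengths and gene overlaps came from the same annotation (GRCm38), none of whose coordinates are printed, and promoter sequences from RefSeq (GRCm38.p6). Genes passing filterByExpr were scaled by TMM and tested with edgeR 4.0.16 in R 4.3.3 (quasi-likelihood, culture as the only term, Benjamini-Hochberg at 0.05 over all tested genes). Each SE was taken as the absolute log2 change over the square root of F. Log2 CPM used a prior count of 2 and ratios 0.5 added to counts. Python 3.11.15, pandas 2.3.3, numpy 2.4.6, scipy 1.17.1 and matplotlib 3.10.9 were used for the rest. The fit was tested on simulated data before use.

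The members and lists were chosen with earlier results of these data known. Named were all 8 members, up to 4 called genes per pathway list and 3 per cell type list with the smallest adjusted p, and the 3 genes most correlated with each member (without predicted genes, pseudogenes and Rik clones); not all genes that meet this rule are reported here. Alternatives were other scalings (DESeq2's size factors, upper quartile, library totals, megakaryocyte markers), no filter or 1 CPM in 4 libraries, DESeq2 1.42.0, limma-voom (3.58.1), a replicate block, the macrophage score as a covariate, an adjusted p under 0.01 and libraries left out. Counts per member and library ranged from 1291 to 547708, so counting error was small beside the spread between libraries.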

Additional observations from a re-analysis of the deposited data

Results flagged for a closer look

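In groups of 4 libraries, a library was picked out when its gap to the nearest other library, divided by the range of the group, exceeded Dixon's critical value. Chance does this in about 1 of 20 groups; 34 groups were tested and 7 were picked out, all through hydrogel 1. Many of these measures vary together, so they are not separate findings.

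Hydrogel 1 was the highest hydrogel library for Itga2b at 5077 CPM (others 3346 to 3599), Itgb3 at 8422 CPM (5689 to 6048), Itga2 at 478 CPM (314 to 338) and Itga6 at 3024 CPM (2049 to 2177). It also had the highest ratio of Itgav to Itgb5, 1.84 (others 1.25 to 1.29), and of Itga2 to Itgb1, 0.408 (0.341 to 0.352). Its macrophage marker score of 0.39 was the lowest of the hydrogel libraries (others 1.34 to 1.40).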

How the results depend on the processing

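Itga5 was called higher, and Itga2b and Itgb3 lower, with upper-quartile scaling, library totals, no filter, 1 CPM in 4 libraries, DESeq2 and limma-voom, and Itgav and Itgb5 were called only when scaled on megakaryocyte markers. With DESeq2's size factors Itgb3 was at −0.62 on the log2 scale and lost its call (edgeR adjusted p = 0.0502). At an adjusted p under 0.01, 0 members and 2091 genes were called, so that Itga2b (−0.72) and Itgb3 (−0.62) lost their calls. Scaled on megakaryocyte markers, 5 members and 6298 genes were called (6047 higher, 251 lower), Itga2b was at −0.18 and Itgb3 at −0.056, neither called, and Itga6 (0.21) and Itgb1 (0.26) turned to higher; the median of all genes moved by 0.54. With the macrophage score as a covariate, 0 members and 524 genes were called, and Itga2b (0.28) and Itgb3 (0.56) changed sign, uncalled. Without hydrogel 1 and liquid 2, 6 members were called. Leaving out each library in turn gave 2700 to 4975 called genes (4052 with all 8; the lowest without hydrogel 2), 1 to 6 called members, log2 changes of −0.89 to −0.65 for Itga2b and −0.77 to −0.52 for Itgb3. Upper-quartile scaling called 1755 genes higher and 2492 lower (41.3% higher, against 51.7% in the TMM fit). Beyond the fewer libraries or the stricter threshold, the cause of these changes was not tested.

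The labels do not say that equal replicate numbers share an animal or day, and same-numbered deviations correlated at 0.22, 0.33, −0.13 and 0.10, so pairing was not taken as given. As a description of the data only, liquid 1, 2 and 4 correlated best with the hydrogel library of their own number, and liquid 3 with hydrogel 1. Read from the hydrogel side, only hydrogel 2 correlated best with the liquid library of its own number. Hydrogel 1 was closest to liquid 3 (0.44), and hydrogel 3 and hydrogel 4 were closest to liquid 2 (0.25 and 0.16). A replicate block called 4238 genes and the same number of members, with Itga2b at −0.73 (edgeR adjusted p = 0.00887) and Itgb3 at −0.61 (0.0423); for the ratios its smallest possible exact p was 0.125.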

Other observations

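Markers of other marrow cells, read from lists, also differed between the cultures in which the integrin subunits were measured. The shares of all tested genes, to set beside these lists, were 15.1% higher and 14.1% lower. Mast cell and basophil genes were lower in 6 of 8 tested and higher in 0 (2 lower without hydrogel 1 and liquid 2, and 1 to 7 with any 1 library left out), with Gata2 falling from 56.8 ± 15.02 to 23.0 ± 3.91 CPM, Cpa3 from 41.8 ± 19.7 to 15.8 ± 6.42 CPM and Il1rl1 from 5.24 ± 3.23 to 1.91 ± 0.55 CPM (SD over 4 libraries; adjusted p by edgeR from 0.000949 to 0.029). Dendritic and lymphoid genes were lower in 6 of 7 tested, with Clec9a falling from 21.6 ± 3.91 to 7.46 ± 1.95 CPM; Cd209a and Ccr9 were low throughout (at most 2.95 CPM on average in liquid). Gata2 is also a factor of early megakaryocyte progenitors.

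Of 12 tested neutrophil genes 2 were higher and 1 lower, and the median log2 change of the list was −0.56. The collagenase gene Mmp8 rose from 15.6 ± 7.12 to 176 ± 54.1 CPM and the receptor gene Csf3r from 11.2 ± 8.10 to 46.8 ± 14.1 CPM. The lactoferrin gene Ltf fell from 70.9 ± 53.8 to 18.9 ± 8.85 CPM (edgeR adjusted p of these genes from 0.000248 to 0.0166). Not called were S100a8, S100a9, Camp, Ngp, Cxcr2, Elane and Mpo, with lower estimates in hydrogel, and Prtn3 and Ctsg, with higher ones. The call of Ltf was lost without hydrogel 4 (edgeR adjusted p up to 0.051 over the fits without 1 library), and the lower count of this list was 0 to 4 with 1 library left out, 5 with no filter and 7 with the macrophage covariate. Of 6 tested erythroid genes 2 were lower (Epor from 117 ± 18.3 to 68.6 ± 13.6 CPM; Hba-a1 from 6.43 ± 1.03 to 1.38 ± 0.70 CPM) and 1 higher (Tfrc, 1.18-fold, edgeR adjusted p = 0.0401, up to 0.122 with 1 library left out; 0 genes of this list were higher in 7 of 8 such fits, all but that without liquid 2). Of 7 tested stromal and endothelial genes Kdr and Pecam1 were lower (2.36-fold and 1.56-fold) and Cdh5, under 1 CPM on average in hydrogel, higher; megakaryocytes express Pecam1 too. The macrophage genes with the smallest adjusted p were Clec4n (56.3 ± 19.9 against 3.37 ± 1.46 CPM), Marco (4.55 ± 3.76 against 0.0392 ± 0.0319 CPM) and Lyz2 (3536 ± 945 against 883 ± 238 CPM), and the megakaryocyte genes Tbxa2r (128 ± 13.0 against 224 ± 33.4 CPM), Gp1bb (26.4 ± 4.48 against 50.1 ± 8.41 CPM) and Clec1b (299 ± 63.8 against 667 ± 157 CPM; hydrogel first, SD, n = 4 each).

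On deviations from each culture's mean, the genes most like the fibrinogen receptor chains were Clic4 (0.999), B4galt1 (0.998) and P2rx1 (0.997) for Itgb3, and Sema4b (0.989), Gimap6 (0.988) and E2f3 (0.987) for Itga2b, as a description of 8 libraries. Gimap6 for Itga2b and P2rx1 for Itgb3 were in the first 3 by both measures.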
